A study of Mus musculus with 12 samples.

Results

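The ATF4 response is followed here through 36 genes of mouse T helper 1 (Th1) cells, chosen by name: transcription factors and other regulators of the response, its stress outputs, enzymes that make serine, asparagine, proline and folate-bound one-carbon units, and cytosolic aminoacyl-tRNA synthetases. All 36 symbols were found among the 18929 of the deposited table. All 36 also passed the filter on low values that defined the 12699 genes tested, a value over 10 in at least 3 of the 6 libraries. Cth, the scarcest, reached that filter in the 3 control libraries and in only 1 library of the other group.

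ATF4 is a transcription factor whose messenger RNA is translated better when the initiation factor eIF2 is phosphorylated, which happens when amino acids run short, when proteins misfold in the endoplasmic reticulum or when mitochondria fail. The protein binds a composite DNA element, the C/EBP-ATF response element (CARE), and raises transcription of genes that import and make amino acids, charge tRNAs and limit further stress. Proliferating T cells use the serine and one-carbon branch of this programme to supply nucleotide synthesis. Part of the control of ATF4 is exerted on its translation and is not visible in counts of messenger RNA.

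The comparison used 2 groups, both of T cells of C57BL/6 mice that spent 5 days in Th1 culture and were sorted before RNA was taken. The first group had the genotype Sdhc cKO, and the controls were wild type (WT). Each group had 3 libraries, named cKO 1 to 3 and control 1 to 3 after their replicate numbers. Sdhc encodes a membrane anchor of succinate dehydrogenase (complex II of respiration), and cKO stands for a conditional knockout. The Cre driver, the age of the mice and whether libraries came from single animals are not given in the labels. What the spread behind the p-values measures is thus not known. It is not technical alone, since libraries of the same group differed in Y-linked and Xist transcripts, given below. They therefore did not all come from the same mix of animals. The other 6 samples of the series were not analysed here. Values are normalised counts, that is reads per gene divided by 1 size factor per library, from 18144933 to 21983821 counted reads a library. Sdhc itself had 1452, 1562 and 1655 normalised counts in cKO, against 1683, 1603 and 1892 in control libraries, a log2 fold change of -0.15 (standard error 0.09), with a limma adjusted p of 0.978. Which exons were deleted is not given in the sources used here, and a count over the whole gene does not check the labels.

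The cells expressed the defining genes of their label. The summed T cell markers Cd3e, Cd3g, Cd2, Cd5 and Cd4 reached 34345 to 39886 in cKO and 33667 to 36593 in control libraries, and the Th1 markers Tbx21, Ifng, Cxcr3 and Il12rb2 reached 6792 to 7333 in cKO and 7457 to 8230.1 in control libraries. Within that sum, Ifng had 858 to 880 in cKO and 1342 to 1461 in control libraries, and Tbx21 had 1371 to 1501 and 1660 to 1961. Ifng did not pass on genotype alone (limma adjusted p = 0.265). It did pass in fits described below, with limma adjusted p of 0.0255 with the replicate number as a block and 0.00344 with Y-linked reads as a covariate. Without the libraries numbered 1 its limma adjusted p was 0.0404. Cxcr3 and Il12rb2 overlapped between the groups. The sum of the CD8 markers Cd8a and Cd8b1 was 235 to 547 in cKO and 278 to 368 in control libraries. Ighm, of the B cell list, had 1824 to 2025 in cKO and 1577 to 1913 in control libraries. The myeloid markers Lyz2 and Cd14 and the granulocyte marker Mpo stayed at or under 3 in all 6 libraries, Csf1r reached 9.69 in cKO 3, and Itgam had 80.3, 24.4 and 45.2 in cKO 1, 2 and 3, against 63.9, 31.4 and 48.4 in control 1, 2 and 3. The 2 erythroid globin genes Hba-a1 and Hbb-bs summed to 7.03 to 29.8 in cKO and 0 to 87.2 in control libraries, highest in control 2. The libraries numbered 1 stood apart in other transcripts. Reads on Y-linked genes came to 0.207, 193 and 189 RPM in cKO 1, 2 and 3, and 0.048, 131 and 55.1 in control 1, 2 and 3. Xist, which coats the inactive X chromosome, stood at 7565, 0 and 2.15 in cKO 1, 2 and 3, against 9780, 2490 and 6406 in control 1, 2 and 3, so controls 2 and 3 held both kinds of transcript. The summed natural killer cell markers Ncr1, Klrb1c, Klrk1 and Klrd1 were 269, 103 and 114 in cKO 1, 2 and 3, against 359, 150 and 175 in control 1, 2 and 3. Klrk1 was the largest part of each of these sums, and Ncr1, a defining gene of those cells, was at most 8.61 in cKO libraries and was highest in control 3. In bulk RNA, fewer cells of a type and less RNA per cell cannot be told apart.

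The promoter windows of 7 members are shown because these windows hold, or lack, a match to the element that ATF4 is known to bind. The windows are those of RefSeq on GRCm38.p6, 250 bases before to 50 after the start of a gene, and 28 of the 36 members had at least 1. They were searched for the 8 letters TGATGNAA, or TTNCATCA where the element lies on the other strand, and each match is in capitals. Trib3, Chac1, Nupr1, Vldlr and Asns were picked as members that both hold a match and differed widely between libraries. Vldlr had 2 windows, and the window not shown held no match. Aars is shown as a tRNA synthetase gene with 2 matches, and Ddit3 as the member that lay higher in cKO.
Trib3, chr2:152344011-152344310, minus strand: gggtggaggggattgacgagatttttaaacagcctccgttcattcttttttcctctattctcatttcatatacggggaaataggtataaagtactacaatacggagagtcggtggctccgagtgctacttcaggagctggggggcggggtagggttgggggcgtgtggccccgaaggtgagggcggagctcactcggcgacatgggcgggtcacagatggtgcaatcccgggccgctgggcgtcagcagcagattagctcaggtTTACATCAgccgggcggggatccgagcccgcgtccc
Chac1, chr2:119350992-119351291, plus strand: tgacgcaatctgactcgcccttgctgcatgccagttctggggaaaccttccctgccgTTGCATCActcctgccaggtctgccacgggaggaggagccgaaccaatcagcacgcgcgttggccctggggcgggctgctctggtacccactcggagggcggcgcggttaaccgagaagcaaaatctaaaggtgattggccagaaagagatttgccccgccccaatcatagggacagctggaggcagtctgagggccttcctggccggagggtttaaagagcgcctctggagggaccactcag
Nupr1, chr7:126625421-126625720, minus strand: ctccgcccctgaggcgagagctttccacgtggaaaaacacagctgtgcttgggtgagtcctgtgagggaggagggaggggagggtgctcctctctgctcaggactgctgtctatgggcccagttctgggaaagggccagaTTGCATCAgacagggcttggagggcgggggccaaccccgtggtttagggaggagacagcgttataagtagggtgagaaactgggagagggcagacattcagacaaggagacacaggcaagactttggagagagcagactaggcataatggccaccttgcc
Vldlr, chr19:27216770-27217069, plus strand: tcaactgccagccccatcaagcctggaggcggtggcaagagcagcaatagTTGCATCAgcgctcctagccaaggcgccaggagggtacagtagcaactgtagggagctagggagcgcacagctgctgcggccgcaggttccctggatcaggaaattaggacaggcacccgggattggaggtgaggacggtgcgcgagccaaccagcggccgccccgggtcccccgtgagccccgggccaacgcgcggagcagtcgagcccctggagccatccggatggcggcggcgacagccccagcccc
Asns, chr6:7693160-7693459, minus strand: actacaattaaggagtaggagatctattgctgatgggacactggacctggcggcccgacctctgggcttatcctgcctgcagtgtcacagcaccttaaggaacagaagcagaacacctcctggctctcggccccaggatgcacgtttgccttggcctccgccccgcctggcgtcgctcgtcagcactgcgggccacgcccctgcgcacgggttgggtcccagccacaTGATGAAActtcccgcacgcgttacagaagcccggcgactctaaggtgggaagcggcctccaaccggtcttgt
Aars, chr8:111033592-111033891, plus strand: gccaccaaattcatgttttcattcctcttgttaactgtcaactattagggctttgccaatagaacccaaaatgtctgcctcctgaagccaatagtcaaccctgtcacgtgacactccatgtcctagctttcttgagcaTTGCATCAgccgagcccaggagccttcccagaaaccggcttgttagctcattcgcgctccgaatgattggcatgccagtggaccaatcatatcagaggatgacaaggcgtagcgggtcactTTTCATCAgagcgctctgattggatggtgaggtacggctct
Ddit3, chr10:127290543-127290842, plus strand: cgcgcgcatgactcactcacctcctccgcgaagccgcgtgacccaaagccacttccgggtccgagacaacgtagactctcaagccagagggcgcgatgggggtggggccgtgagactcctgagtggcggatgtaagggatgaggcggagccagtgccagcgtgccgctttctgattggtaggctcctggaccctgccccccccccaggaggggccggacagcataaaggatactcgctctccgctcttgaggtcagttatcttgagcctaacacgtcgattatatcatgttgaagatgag

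A match was present for 11 of the 28 members with a window, namely Atf3, Trib3, Nupr1, Chac1, Vldlr, Asns, Pycr1, Gars, Aars, Iars and Yars. Of all 32851 windows, 3.97% held one, and of the 9028 tested genes with a window under their symbol, 2.80% did. The windows of Ddit3 and of Atf4 itself held none of these letters. Sequence outside the windows was not searched, so these genes may hold a match elsewhere. The 11 members with a match had a median ratio of 1.89 between their highest and lowest library, and the 17 whose windows held none had 1.71. A match is a description of these letters and does not show that ATF4 was bound.

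No member passed the test of cKO against control. With limma-trend on log2(value + 1) and Benjamini-Hochberg adjustment at 0.05, 0 of 36 members were called, and 0% of the 12699 tested genes. At an unadjusted p under 0.05, limma gave 1 member lower, Cth, and 1 higher, Ddit3, against 1.53% and 1.98% of tested genes. Cth had passed the filter through its control libraries, which the p-value does not allow for. edgeR on the recovered reads called 0 members, and 0% of tested genes. It had Cth lower and Ddit3 higher at an unadjusted p under 0.05, against 1.25% and 2.33% of tested genes. DESeq2 called 0 members, against 0.00787% of tested genes in either direction, and had Ddit3 alone under the unadjusted limit, against 1.03% lower and 1.27% higher. Fold changes were negative for 32 of the 36 members, against 54.1% of tested genes (with upper-quartile scaling Atf5, Sesn2 and Yars turned positive, with TMM Yars alone). The median was -0.17 beside -0.01 over all tested genes. Without cKO 1 that median was 0.02 and without control 1 it was -0.34. Without cKO 2 it was -0.29, without cKO 3 -0.26, without control 2 -0.09 and without control 3 -0.10.

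**Figure D1:**
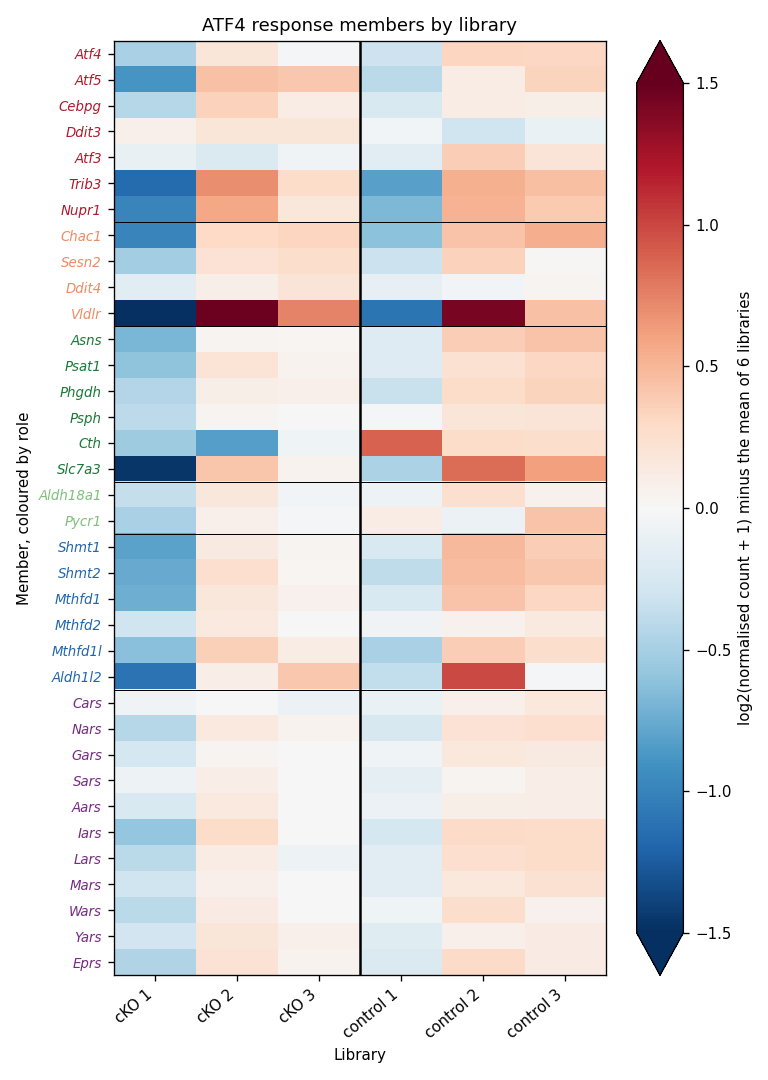
Each of the 36 members (rows, coloured by role) in each library (columns, cKO left of the line and control right of it), as log2(normalised count + 1) minus the mean of the 6 libraries; the colour scale ends at 1.5 either way and Vldlr goes past it in cKO 1. The columns of cKO 1 and control 1 are blue for nearly all members, and 31 of 36 members had both of these libraries below the other 4.

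Within same-numbered libraries the members were lower in cKO more often than tested genes at large. In pair 1, 32 of 36 members were lower in cKO 1 than in control 1, with a median log2 difference of -0.26, beside 54.8% and -0.03 for all tested genes. In pair 2 it was 24 of 36 and -0.08, beside 53.0% and -0.01. In pair 3 it was 29 of 36 and -0.20, beside 52.9% and -0.01. In all 3 pairs at once, 20 members were lower in cKO, against 21.8% of tested genes, and 1, Ddit3, was higher, against 14.6%. The 20 genes were read in the same libraries and are not independent of each other. Groups without overlap were rarer: Cth alone was below all controls in all 3 cKO libraries, against 5.64% of tested genes, and Ddit3 alone was above, against 4.51%. Cth had been kept by the filter through those same controls.

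**Figure D2:**
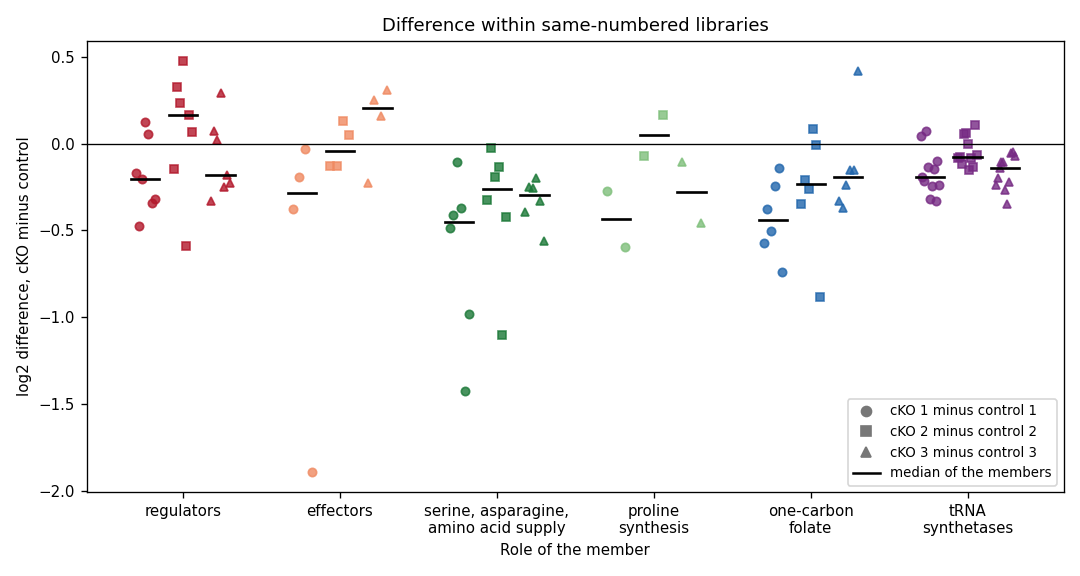
The log2 difference between the cKO and the control library of the same replicate number, for every member (points) by role, with the median of each role and pair as a black bar. All 6 genes of serine, asparagine and amino acid supply lie below 0 in all 3 pairs, while the medians of the regulators and of the effectors lie on either side of 0 depending on the pair.

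Among the regulators, Atf4 was lower in cKO within each pair and its groups overlapped. Atf4 had 2467, 3905 and 3403 normalised counts in cKO, against 2775, 4320.4 and 4286 in control libraries, means of 3258 ± 730.2 in cKO and 3794 ± 883 in control libraries (SD, n = 3 each) and a log2 fold change of -0.22 (standard error 0.22), with a limma adjusted p of 0.978. The 2 libraries numbered 1 were the lowest of the 6. Atf5, a related factor whose translation is also raised by eIF2 phosphorylation, had 317, 794 and 777 normalised counts in cKO, against 441, 634 and 739 in control libraries. Here cKO 2 and cKO 3 were the highest of the 6 libraries and cKO 1 the lowest, and the log2 fold change was -0.03 (standard error 0.36). Cebpg, which pairs with ATF4 on DNA, had 1298, 2224 and 1895 normalised counts in cKO, against 1496, 1895 and 1869.9 in control libraries, and a log2 fold change of 0.02 (standard error 0.19). In Cebpg too, cKO 2 was the highest and cKO 1 the lowest library.

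Ddit3 was the one member with all 3 cKO libraries above all controls. It encodes CHOP, a transcription factor induced through ATF4 under prolonged stress. It had 636, 681 and 686 normalised counts in cKO, against 583, 490.1 and 559.9 in control libraries, with means of 668 ± 27.7 in cKO and 544 ± 48.6 in control libraries (SD, n = 3 each). Its log2 fold change was 0.30 (standard error 0.10), with a 95% interval of 0.07 to 0.52. The difference did not pass over all genes (limma adjusted p = 0.978). In a 2-sided exact permutation test p was 0.1, which is the smallest that 3 against 3 allows. Without the libraries numbered 1, the log2 fold change was 0.38 (limma adjusted p = 0.571). Ddit3 did not share the low values of the libraries numbered 1: cKO 1 was above all 3 controls, and control 1 was the highest of the controls. The GENCODE M21 annotation (GRCm38) places it on chromosome 10, 127290774 to 127296288, plus strand, as 2 overlapping models. There 68 bases of its exons overlap those of Mars, on the minus strand. Strand-specific counting is not stated in the labels, so the 2 genes may share reads. Mars itself had a log2 fold change of -0.15 (standard error 0.13).

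Trib3, a pseudokinase that holds back ATF4 and CHOP, had 458, 1658 and 1238 normalised counts in cKO, against 582, 1477 and 1401 in control libraries, and a log2 fold change of -0.12 (standard error 0.51). The group means were 1118 ± 609 in cKO and 1153 ± 497 in control libraries (SD, n = 3 each), so that the spread within a group was far wider than the difference. Nupr1, a small stress-induced chromatin protein, had the same order of libraries, with 22.1, 67.8 and 50.6 normalised counts in cKO, against 27.8, 64.7 and 59.4 in control libraries. Atf3, another stress-induced factor, had 69.3, 64.2 and 72.1 normalised counts in cKO, against 66.7, 97.0 and 85.8 in control libraries, a log2 fold change of -0.26 (standard error 0.19). In Atf3 the cKO libraries lay close together, and control 1 was lower than 2 of them.

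**Figure D3:**
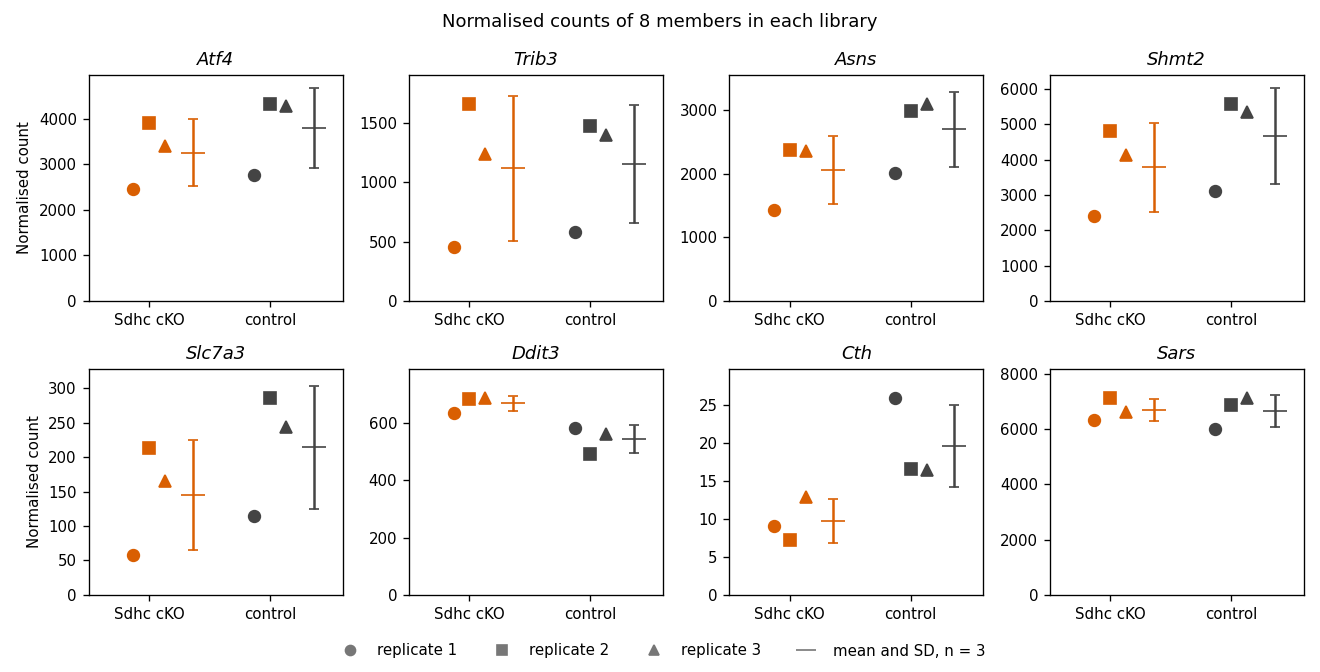
Normalised counts of 8 members in cKO (left in each panel) and control libraries (right), 1 point a library with its replicate number as its shape, beside the mean and SD (n = 3). The libraries numbered 1 (circles) are low in Atf4, Trib3, Asns, Shmt2 and Slc7a3 of both groups, Ddit3 and Cth separate the groups, and Sars is nearly level.

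The stress outputs had fold changes of either sign. Chac1, which degrades glutathione, had 68.3, 168 and 170.0 normalised counts in cKO, against 88.9, 184 and 199 in control libraries. It was lower in cKO in each pair, and the groups overlapped, with a log2 fold change of -0.24 (standard error 0.42). Sesn2, a leucine-binding inhibitor of mTORC1, had 989, 1649 and 1707 normalised counts in cKO, against 1129.9, 1803 and 1437 in control libraries, and a log2 fold change of -0.02 (standard error 0.24). In Sesn2 the highest library was control 2, while control 3 lay below cKO 2 and cKO 3. Ddit4, another mTORC1 inhibitor, had 3114, 3707 and 3973 normalised counts in cKO, against 3184, 3385 and 3563 in control libraries, and a log2 fold change of 0.09 (standard error 0.10), with cKO 2 and cKO 3 above every control. Vldlr, the very low density lipoprotein receptor, had the widest spread of all members, with 4.02, 109 and 65.6 normalised counts in cKO, against 17.6, 106 and 52.8 in control libraries. Its ratio of highest to lowest library was 27.2, its log2 fold change was -0.51 (standard error 1.14), and its sign turned with edgeR and DESeq2 (0.05 and 0.03).

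Serine and asparagine synthesis and amino acid uptake was the group in which every gene was lower in cKO within every pair. Asns makes asparagine from aspartate. It had 1438, 2381 and 2354 normalised counts in cKO, against 2018, 2986 and 3096 in control libraries, means of 2058 ± 537 in cKO and 2700.3 ± 593 in control libraries (SD, n = 3 each) and a log2 fold change of -0.40 (standard error 0.23), with a limma adjusted p of 0.978. The groups overlapped because control 1 lay below cKO 2 and cKO 3, and each cKO library was below the control of its own number. With the replicate number as a block the log2 fold change was -0.40 (standard error 0.06), and it still did not pass (limma adjusted p = 0.156). Slc7a3, a cationic amino acid transporter, had 57.2, 212 and 165 normalised counts in cKO, against 114, 285 and 243 in control libraries, and a log2 fold change of -0.65 (standard error 0.52). As in Asns, the libraries numbered 1 were the lowest and controls 2 and 3 the highest.

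The 3 enzymes of serine synthesis from glycolytic 3-phosphoglycerate had smaller negative fold changes. Phgdh, the first step, had 3553, 5097 and 5075 normalised counts in cKO, against 3827, 5818 and 6064 in control libraries, and a log2 fold change of -0.18 (standard error 0.21). Psat1, the aminotransferase of the second step, had 3696, 6489 and 5851 normalised counts in cKO, against 4915, 6611 and 6955 in control libraries, and a log2 fold change of -0.23 (standard error 0.22). Psph, the phosphatase that releases serine, had 779, 1057 and 1018 normalised counts in cKO, against 1008, 1162 and 1168 in control libraries, and a log2 fold change of -0.24 (standard error 0.13). Of the exon bases of Psph, 452 overlap Cct6a on the other strand. In each of the 3 genes cKO 1 was the lowest library, and control 3 was the highest. GENCODE M21 lists a pseudogene of Phgdh, and how reads shared with it were counted is not given in the sources used here.

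Cth, which makes cysteine from cystathionine, differed from the others in its order of libraries. It had 9.04, 7.23 and 12.9 normalised counts in cKO, against 25.9, 16.7 and 16.5 in control libraries, means of 9.73 ± 2.90 in cKO and 19.7 ± 5.40 in control libraries (SD, n = 3 each) and a log2 fold change of -0.95 (standard error 0.34), with a 95% interval of -1.75 to -0.16. All 3 cKO libraries were below all controls (2-sided exact permutation p = 0.1, the smallest possible), and control 1 was the highest library. Cth passed the filter on low values through its 3 control libraries, so the filter itself favoured this order. The p-values and the interval of Cth do not allow for that. It did not pass over all genes (limma adjusted p = 0.978), and the counts are low, from 7.23 in cKO 2 to 25.9 in control 1.

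Both proline genes had negative fold changes. Aldh18a1, the synthase that starts proline synthesis from glutamate, had 3685, 5298 and 4581 normalised counts in cKO, against 4454, 5570.0 and 4922 in control libraries, and a log2 fold change of -0.15 (standard error 0.14). Pycr1, the mitochondrial reductase of the last step, had 153, 227 and 209.9 normalised counts in cKO, against 232, 202 and 288 in control libraries and -0.30 (standard error 0.19) on the same scale. Aldh18a1 was lower in cKO in each pair and Pycr1 was not, since cKO 2 was above control 2.

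One-carbon folate enzymes transfer the carbon of serine to folate in the mitochondrion and the cytosol, and all 6 were negative in fold change (median -0.33). Shmt2, the mitochondrial serine hydroxymethyltransferase, had 2390.3, 4809 and 4139 normalised counts in cKO, against 3105, 5565 and 5357 in control libraries, and a log2 fold change of -0.32 (standard error 0.30), with a limma adjusted p of 0.978. Shmt1, its cytosolic counterpart, had 332, 635 and 595 normalised counts in cKO, against 495, 811 and 750.2 in control libraries, and a log2 fold change of -0.42 (standard error 0.28). Mthfd1, the cytosolic enzyme with 3 activities, had 1152, 2147 and 2010.4 normalised counts in cKO, against 1634, 2572 and 2369 in control libraries, and a log2 fold change of -0.33 (standard error 0.26). Each of these 3 genes had cKO 1 lowest, control 1 next, then cKO 3, cKO 2, control 3 and control 2.

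The other 3 folate genes differed less between the groups or were scarce. Mthfd2, the mitochondrial dehydrogenase and cyclohydrolase, had 3071, 4199 and 3757 normalised counts in cKO, against 3639.9, 3962 and 4178 in control libraries, and a log2 fold change of -0.10 (standard error 0.12). Mthfd1l, which releases formate from mitochondria, had 1708, 3394 and 2856 normalised counts in cKO, against 1880.2, 3409.9 and 3178 in control libraries, and a log2 fold change of -0.10 (standard error 0.30). Its log2 differences of cKO from control were -0.14, -0.01 and -0.15 in pairs 1, 2 and 3. Aldh1l2, a mitochondrial formyltetrahydrofolate dehydrogenase, had 20.1, 47.9 and 59.2 normalised counts in cKO, against 34.3, 89.2 and 44.0 in control libraries, and a log2 fold change of -0.40 (standard error 0.48), and 1056 bases of its exons overlap a gene on the other strand.

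The tRNA synthetases charge tRNAs with their amino acids and had narrower ranges over the libraries than most other members. Of the 11 genes, 10 had negative fold changes, from -0.25 for Lars to -0.01 for Yars, and that of Sars was 0.01. The median of the 11 was -0.15. Lars, which charges leucine tRNA, had 1577, 2238 and 1972 normalised counts in cKO, against 1868, 2484 and 2508 in control libraries and was lower in cKO in each pair. Iars, for isoleucine, had 2372, 4322 and 3586 normalised counts in cKO, against 2955, 4327 and 4317 in control libraries, and a log2 fold change of -0.20 (standard error 0.23), and its pair 2 was nearly level. Eprs, for glutamate and proline, had 4852, 7727 and 6869 normalised counts in cKO, against 5722, 8095 and 7225 in control libraries, and a log2 fold change of -0.13 (standard error 0.19). In Lars, Iars and Eprs the cKO 1 library was the lowest and control 1 the next.

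Sars, Cars, Aars and Gars had the narrowest ranges of the synthetase genes. Sars, for serine, had 6317, 7114 and 6614 normalised counts in cKO, against 6004, 6857 and 7111 in control libraries, and the ratio of its highest to its lowest library was 1.18. Cars, for cysteine, had 1899, 1967 and 1861 normalised counts in cKO, against 1842, 2086 and 2195 in control libraries, and a log2 fold change of -0.09 (standard error 0.08). In both Sars and Cars the lowest library was control 1, not cKO 1. Aars, for alanine, had 5704, 7353 and 6631 normalised counts in cKO, against 6268, 7055 and 7125 in control libraries, and a log2 fold change of -0.06 (standard error 0.11), and 1326 bases of its exons overlap Exosc6 on the same strand. Gars, for glycine, had 4723, 5836 and 5683 normalised counts in cKO, against 5483, 6331 and 6262 in control libraries, and a log2 fold change of -0.16 (standard error 0.10), lower in cKO in each pair. In Gars cKO 1 was again the lowest library, and controls 2 and 3 were the highest. Nars, Wars and Mars, for asparagine, tryptophan and methionine, had log2 fold changes of -0.15, -0.17 and -0.15 and were also lower in cKO in each pair. Yars, for tyrosine, had 1925, 2665 and 2485 normalised counts in cKO, against 2066, 2479 and 2567 in control libraries, with cKO 2 the highest of the 6 libraries.

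**Figure D4:**
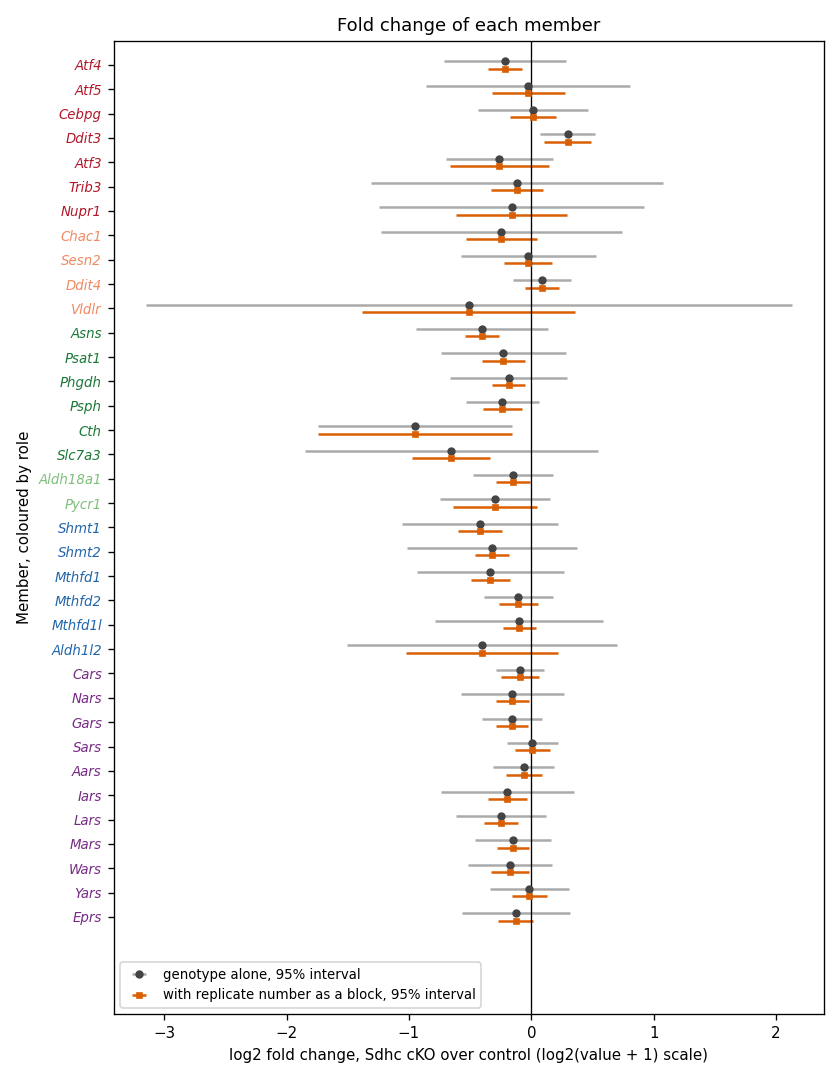
The log2 fold change of cKO over control for each member, with 95% intervals, from the fit on genotype alone (circles) and with the replicate number as a block (squares). Only the intervals of Ddit3 and Cth leave out 0 on genotype alone, while the block narrows most others and leaves the fold changes as they were.

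The 6 libraries differed widely in these genes. The highest of the 6, of either group, exceeded the lowest by over 1.5 times at 26 of 36 members, against 38.5% of tested genes, and by over 2 times at 12, against 18.7%. cKO 1 was the lowest of the 6 libraries at 31 of 36 members, against 32.0% of tested genes, and both libraries numbered 1 were below the other 4 at 31 members, against 20.3%. The highest library was control 2 or control 3 at 24 members, against 31.4%. Together the 36 genes took 0.351%, 0.505% and 0.471% of the reads of cKO 1, 2 and 3, and 0.406%, 0.527% and 0.513% of those of control 1, 2 and 3. The share was thus lowest in cKO 1, next in control 1, and within each pair lower in cKO.

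Taken by group, cKO 1 lay below the mean of cKO 2 and 3 at 35 members with a median log2 difference of -0.54, and control 1 lay below the mean of controls 2 and 3 at 34 members with a median of -0.46. The medians over all tested genes were -0.01 and 0.00461. The widest steps were in Vldlr (-4.10 in cKO and -2.03 in control), Slc7a3 (-1.69 and -1.20), Trib3 (-1.64 and -1.31) and Nupr1 (-1.37 and -1.13). Of the roles, the effectors had the largest median steps, -1.03 in cKO and -0.80 in control, then the one-carbon genes, with -0.88 and -0.73. The tRNA synthetases had -0.41 and -0.29. The Y-linked, Xist, natural killer cell and Itgam transcripts given above moved with these libraries within each group as well, and their part in the low values was not tested. In libraries 2 and 3, Xist also split by genotype, with 0 and 2.15 in cKO against 2490 and 6406 in control. Y-linked reads did so too, with 193 and 189 RPM against 131 and 55.1. There these differences cannot be told apart from genotype.

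**Figure D5:**
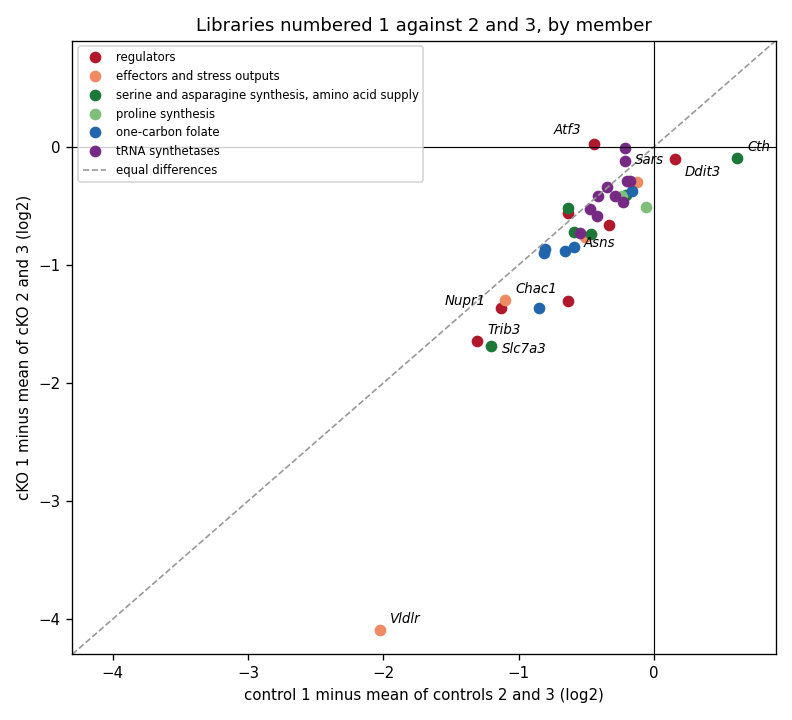
The step of cKO 1 from the mean of cKO 2 and 3 (vertical) against the step of control 1 from the mean of controls 2 and 3 (horizontal) for each member, in log2 units, with a dashed line of equal steps. Nearly all members lie in the lower left, with Vldlr at -4.10 and -2.03 farthest out, while Ddit3 and Cth lie to the right of 0.

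Fits with a term for the differences between libraries gave narrower intervals and smaller p-values for many members. With the replicate number as a block, 0 members passed (limma), beside 0.00787% of tested genes lower and 0% higher, but 17 were lower and 1, Ddit3, higher at an unadjusted p under 0.05, against 8.01% and 4.56% of tested genes. The 17 held Atf4, Asns, Psat1, Phgdh, Psph, Cth, Slc7a3, Aldh18a1, Shmt1, Shmt2, Mthfd1 and 6 synthetase genes, Nars, Gars, Iars, Lars, Mars and Wars. Without the libraries numbered 1, 0 members passed, beside 0.0236% of tested genes lower and 0% higher, with 11 lower and again Ddit3 higher at that limit, against 4.50% and 2.81%. Among the libraries left, Xist and Y-linked reads also split by genotype and cannot be told apart from it.

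With the share of Y-linked reads as a numeric covariate, 18 of 36 members were called lower in cKO and 0 higher (limma adjusted p under 0.05), against 4.86% and 1.65% of tested genes. They were Atf4, Sesn2, Vldlr, Asns, Psat1, Psph, Slc7a3, Aldh18a1, Shmt1, Shmt2, Mthfd1, Aldh1l2, Nars, Gars, Iars, Lars, Wars and Eprs. The smallest limma adjusted p was 0.0101, for Mthfd1, with a log2 fold change of -0.63, and Shmt1, Slc7a3 and Asns had -0.73, -1.25 and -0.65. Ddit3 did not pass (log2 fold change 0.30, limma adjusted p = 0.0773). That covariate was chosen with earlier results of these libraries known, and the shares of the 2 genotypes come close to each other only in the libraries numbered 1, near 0. Without cKO 1 it called 0 members lower, against 0.0157% of tested genes. Without cKO 3 it called 5, against 1.26%, and without control 2 also 5, against 0.63%; both times these were Vldlr, Asns, Slc7a3, Shmt1 and Mthfd1. Without cKO 2 it called 13, against 3.41%, without control 3 it called 13, against 3.04%, and without control 1 it called 22, against 5.57%. The level of Xist in its place called 23 members lower and 0 higher, against 6.66% and 2.74% of tested genes. Xist itself had the most negative fold change of all tested genes (-7.55), so that covariate is tied to genotype. Both covariates also moved the fold changes themselves. The median of the members was -0.17 on genotype alone and -0.39 with the Y-linked covariate, and Atf4 went from -0.22 to -0.51 with Xist.

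Levels can be set side by side only per length, here as mean normalised counts per kilobase of annotated exon (SD, n = 3 each). Ddit4 had 2050.4 ± 251 in cKO and 1924 ± 108 in control libraries, Phgdh 1840.4 ± 356 in cKO and 2106 ± 493 in control libraries and Gars 1736 ± 193 in cKO and 1932 ± 151 in control libraries, the 3 highest members in control libraries, where their levels did not differ beyond their spread. Atf4 followed with 1382 ± 309.7 in cKO and 1609 ± 374 in control libraries and Shmt2 with 1216 ± 402 in cKO and 1504 ± 439 in control libraries. Asns was number 11 of 36 in control libraries with 752 ± 196 in cKO and 987 ± 217 in control libraries, Trib3 number 17 with 526 ± 286 in cKO and 543 ± 234 in control libraries and Ddit3 number 23 with 389.7 ± 16.1 in cKO and 318 ± 28.4 in control libraries. At the low end were Aldh1l2 with 5.65 ± 2.68 in cKO and 7.44 ± 3.91 in control libraries, Cth with 3.49 ± 1.04 in cKO and 7.06 ± 1.93 in control libraries and Vldlr with 5.93 ± 5.26 in cKO and 5.84 ± 4.41 in control libraries. Mitochondrial Shmt2 was thus above cytosolic Shmt1, at 134 ± 42.4 in cKO and 176 ± 43.2 in control libraries, in both groups.

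Other genes of the pathway were taken from 7 lists, and 0 of their 97 tested genes were called in either direction (limma). Among eIF2, its kinases and phosphatases and the subunits of eIF2B, 11 of 15 tested genes were negative in fold change (median -0.06). Its 2 most abundant genes were Eif2s2, a subunit of eIF2, with a log2 fold change of -0.06 (standard error 0.09), and Ppp1r15b, which directs eIF2 dephosphorylation, with 0.03 (standard error 0.10). Of the 15, 1 gene had all 3 cKO libraries above all controls and 1 had them below, near the 4.51% and 5.64% of tested genes. In the other lists, 4 of 18 further folate and glycine genes, 3 of 17 mitochondrial synthetases and 1 of 11 amino acid transporters lay below. In the IRE1 and ATF6 arms, 1 of 18 lay above. The 2 genes of the eIF2 list are named after their values were seen. Eif2ak3, the PERK kinase gene, had 834, 774 and 853 normalised counts in cKO, against 745, 752 and 702 in control libraries, and a log2 fold change of 0.16 (standard error 0.08). Eif2s1, the eIF2 subunit that the kinases phosphorylate, had 2116, 2654 and 2479.6 normalised counts in cKO, against 2804, 2906 and 2807 in control libraries, and a log2 fold change of -0.24 (standard error 0.09).

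Amino acid transporters were negative in fold change in 11 of 11 cases (median -0.14). Slc7a5, the large neutral amino acid transporter, had 4693, 8439.9 and 7666 normalised counts in cKO, against 6294, 8560.4 and 8966 in control libraries, and a log2 fold change of -0.22 (standard error 0.23), and Slc38a1, a glutamine transporter, had -0.05 (standard error 0.07). Slc7a5 showed the low values of the libraries numbered 1 and Slc38a1 hardly did. Cytosolic tRNA synthetases outside the members were negative in 8 of 9 cases (median -0.14), with Vars at 0.03 (standard error 0.09) and Qars at -0.05 (standard error 0.07). The mitochondrial synthetases had 10 of 17 and a median of -0.04, with Iars2 at 0.02 (standard error 0.08) and Tars2 at -0.04 (standard error 0.10). The median steps of the libraries numbered 1 in the mitochondrial synthetases were 0.01 in cKO and -0.04 in control, beside -0.34 and -0.26 in the cytosolic ones outside the members.

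Further folate and glycine genes were negative in 14 of 18 cases (median -0.15), with Ahcy at -0.07 (standard error 0.15) and Atic, of purine synthesis, at -0.22 (standard error 0.21). Further ATF4 target genes had 7 of 9 and a median of -0.15, with Xpot, which exports tRNA from the nucleus, at -0.25 (standard error 0.14), and Got1, the cytosolic aspartate aminotransferase, at -0.000568 (standard error 0.11). The IRE1 and ATF6 arms of the unfolded protein response, which answer to misfolded proteins in the endoplasmic reticulum, had 11 of 18 and a median of -0.03. Calr, a chaperone of that compartment, had -0.03 (standard error 0.16) and Xbp1, the factor of the IRE1 arm, 0.04 (standard error 0.20). With the Y-linked covariate, 19 of the 97 genes of the 7 lists were called lower and 1, Xbp1, higher, against 4.86% and 1.65% of tested genes.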

How the data were processed

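RNA-seq of 6 libraries of Th1 cells was used, 3 labelled Sdhc cKO and 3 WT. The libraries were TruSeq RNA libraries, per the labels' protocols. The submitters' processing notes name STAR, HTSeq, DESeq2 and mm10; their versions and settings were not given. The deposited values are a signal per gene: the authors divided counts by 1 size factor per library, since 100% of values were whole multiples of 1 read to within 0.01. Depth, as recovered reads, was 18144933 to 21983821.

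A gene was tested if its value exceeded 10 in 3 or more libraries (12699 of 18929 symbols). The test was limma-trend, from limma 3.58.1 under R 4.3.3, of log2(value + 1) on genotype alone, with Benjamini-Hochberg adjustment at 0.05. Fold changes are cKO over control on that scale, which understates those of low genes. Raw counts had been one possibility in the plan; limma was used because the values are normalised. Alternatives used the recovered reads (edgeR 4.0.16, DESeq2 1.42.0, limma-voom), other scalings, pseudocounts and filters, array weights, covariates, a replicate block and each library left out. Only limma-trend on genotype alone was checked on simulated data, with genes drawn independently and libraries that differed by depth and genotype alone. The other fits were not checked in this way. All values of 2-sided exact permutation tests over 3 against 3 have 0.1 as their lowest.

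Whether the replicate numbers pair the libraries is not given, and nothing in the labels names a shared animal or day. Deviations from group means correlated over genes at 0.579, 0.458 and 0.188 between same-numbered libraries. cKO 3 correlated more with control 2, at 0.272, so pair 3 is not borne out. The libraries numbered 1 also shared the lowest Y-linked reads and the highest Xist. The members and lists were chosen with earlier results of these data known. All 36 members are named, with the 2 most abundant genes of each other list, none of which had a called gene. Eif2ak3 and Eif2s1 were added after their values were seen. Positions and exon lengths are those of GENCODE M21 (GRCm38, the assembly mm10), and promoter windows those of RefSeq. Exons of 12 members overlap those of another gene, among them Cars (211 bases) and Shmt1 (184 bases). Where exons of 2 genes overlap or a pseudogene exists, counts may be shared.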

Additional observations from a re-analysis of the deposited data

How the results depend on the processing

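The number of members called, 0 in the test on genotype alone, was also 0 with TMM, library-total and upper-quartile scaling, pseudocounts of 0.1 and 5, no filter, a filter at 50, edgeR, DESeq2, limma-voom, array weights, the replicate block and each library left out. It was 18 with the Y-linked covariate and 23 with the Xist covariate, and 0 to 22 with the Y-linked covariate and 1 library left out. Over all genes the count was 0 in the test on genotype alone (445 at an unadjusted p under 0.05), 2 with DESeq2, 1 with array weights, 1 with the replicate block, 826 with the Y-linked covariate, 1194 with the Xist covariate and 3 without both libraries numbered 1. With 1 library left out it was 0 to 1, and with the Y-linked covariate as well 11 to 953. The median log2 fold change of the members was -0.34 to 0.02 with 1 library left out, and -0.43 to -0.30 with the Y-linked covariate as well. The cause was not tested in any of these.

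With the replicate number as a block, the pairing left every fold change as it was and moved no member past the threshold. It changed no other call than that of Ifng, which is outside the members. The Xist covariate, the fit without both libraries numbered 1 and the Y-linked covariate with a library left out were chosen after seeing the data.

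Some signs turned. Yars turned with TMM (0.00151), and with upper-quartile scaling Atf5 (0.018), Sesn2 (0.020) and Yars (0.029) did. With edgeR the values were 0.073 for Atf5, 0.00668 for Sesn2, 0.045 for Vldlr and 0.00801 for Yars, and with DESeq2 0.068, 0.00187, 0.030 and 0.00306. With limma-voom they were 0.0051 for Atf5 and 0.0019 for Yars. With array weights they were 0.11 for Atf5, 0.094 for Sesn2, 0.048 for Vldlr, -0.029 for Sars and 0.00346 for Yars. Without both libraries numbered 1 they were 0.20 for Atf5, 0.060 for Sesn2, 0.18 for Vldlr, -0.026 for Sars and 0.029 for Yars. With the Y-linked covariate Cebpg was -0.20, Ddit4 -0.000304 and Sars -0.046, and with the Xist covariate they were -0.24, -0.019 and -0.065. Leaving out 1 library turned the sign of 17 members at least once, with log2 fold changes of Atf5 -0.25 to 0.41, Cebpg -0.15 to 0.24, Trib3 -0.55 to 0.43, Nupr1 -0.54 to 0.30, Chac1 -0.61 to 0.19, Sesn2 -0.19 to 0.23, Vldlr -1.38 to 0.85, Psat1 -0.39 to 0.017, Mthfd2 -0.21 to 0.019, Mthfd1l -0.37 to 0.19, Aldh1l2 -0.70 to 0.053, Nars -0.31 to 0.021, Sars -0.065 to 0.057, Aars -0.15 to 0.037, Iars -0.38 to 0.048, Yars -0.11 to 0.12 and Eprs -0.27 to 0.069. With the Y-linked covariate as well the ranges were Cebpg -0.29 to -0.088, Ddit4 -0.077 to 0.11, Pycr1 -0.70 to 0.11 and Sars -0.13 to 0.00425. For the other 15 of the 17 members no sign turned in those fits, with ranges of Atf5 -0.70 to -0.053, Trib3 -0.83 to -0.48, Nupr1 -0.83 to -0.48, Chac1 -0.85 to -0.47, Sesn2 -0.43 to -0.27, Vldlr -2.11 to -1.61, Psat1 -0.59 to -0.36, Mthfd2 -0.30 to -0.091, Mthfd1l -0.62 to -0.31, Aldh1l2 -1.30 to -0.72, Nars -0.40 to -0.25, Aars -0.20 to -0.12, Iars -0.52 to -0.35, Yars -0.22 to -0.087 and Eprs -0.42 to -0.30. Without cKO 1 alone, 15 members changed sign.

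Atf3, Nupr1, Vldlr, Cth and Aldh1l2 are limited by depth, with under 100 counts in most libraries; at a filter of 50, 34 of the 36 members were tested.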
